A study of Mus musculus with 6 samples.

Results

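Interleukins are secreted signals between immune and tissue cells, and each acts through a receptor built from chains, many of which are shared between several ligands. The genes described here are those listed under a symbol that starts with Il and a digit, 56 of the 13931 genes in the deposited files, and their FPKM (fragments per length of transcript and per depth of the library) were summed over the transcripts of each gene. By textbook role they hold 18 ligands, 33 receptor chains, 4 inhibitors (an antagonist, a binding protein and decoy receptors) and Il4i1, an amino acid oxidase named for its induction by interleukin 4. RNA was sequenced from preparations of alveolar epithelial type 2 cells (AT2 cells), the surfactant-making cells of the lung, of 6 C57BL/6 mice. There were 3 libraries from mice exposed repeatedly to PBS, labelled sham, and 3 from mice exposed repeatedly to bleomycin, which breaks DNA and is given to mice as a model of lung injury and fibrosis, at 1 U/kg. The labels name no other allele or agent, and the age and sex of the mice, the route, number and timing of exposures and the way the cells were isolated were not stated in the sources.

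Cytokines of the common gamma chain family (IL-2, IL-4, IL-7, IL-9, IL-15 and IL-21) signal through Il2rg and Janus kinases and drive the survival and growth of lymphocytes. The IL-1 family (IL-1, IL-18, IL-33 and IL-36) signals through receptors with a Toll-like intracellular domain and starts inflammation, and the IL-6 and IL-12 families use receptor chains related to Il6st, known as gp130. In the mouse lung AT2 cells are a known source of IL-33, and IL-34 is a ligand of the macrophage growth factor receptor.

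After bleomycin, 15 receptor chains and 5 ligands were higher than with PBS, and 1 ligand, Il34, was lower. Il2rg, the common gamma chain, rose from 2.12 ± 0.791 to 69.0 ± 6.40 FPKM (mean ± SD, n = 3 each), and Il1b, of the inflammatory cytokine IL-1 beta, from 1.98 ± 0.856 to 68.2 ± 41.3. The 12 receptor chains that had a PBS mean of 5 FPKM or more, among them Il6st, Il11ra1, Il18r1 and Il10rb, all missed the test threshold, and so did Il33, the ligand with the highest PBS level. The test was limma on log2(FPKM + 1) over the 12326 genes that reached 1 FPKM in 3 libraries or more, with Benjamini-Hochberg adjustment over all of them. Of these genes 15.2% were called higher and 7.34% lower at an adjusted p under 0.05. Among the interleukin genes 46 of 56 were tested, and 23 rose and 1 fell. Of the 23, 15 were below 1 FPKM in every PBS library, so only their bleomycin libraries let them into the test, and of all 588 tested genes of that kind 92.9% were called higher. The count over the 46 is therefore a description. In a fit with no filter on low values 28 of all 56 were higher, against 14.1% of 13915 genes. Genes at 0 in every PBS library, here Il1rl1, Il17rb and Il22, could only be higher in that fit, so its count is a description as well. Over all 56, the groups did not overlap for 29 that were higher and 4 that were lower with bleomycin, beside 27.0% and 15.6% of all listed genes.

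The label was compared with marker lists. All 8 AT2 genes checked fell, from summed levels of 16609 to 24407 FPKM with PBS to 3009 to 7037 with bleomycin, and Sftpc, which encodes a surfactant protein, fell by 1.90 ± 0.48 on the log2 scale (limma adjusted p = 0.0349), a call that was lost without any 1 library but bleomycin replicate 3 and with quantile normalization. Markers of other cells rose in the same libraries. Ptprc, the pan-leukocyte antigen gene, rose by 5.59, and all 14 markers of T and NK cells did, from sums of 5.78 to 13.2 FPKM to sums of 347 to 609. All 7 B and plasma cell markers rose (sums of 13.9 to 26.1 and 456 to 897), as did 6 of 7 neutrophil markers (9.39 to 31.4 and 414 to 607), 5 of 7 alveolar macrophage markers (16.8 to 30.6 and 261 to 443), 6 of 8 markers of monocytes and recruited macrophages (13.6 to 18.5 and 112 to 165), and 4 of 6 dendritic cell markers (3.85 to 5.51 and 22.4 to 27.0). Ms4a7 of the monocyte list was at 0 in every PBS library. All 8 endothelial markers rose, with sums of 28.2 to 30.9 and 291 to 545 FPKM, and Cldn5 among them was at 0 with PBS. Pecam1, of this list, rose by 3.28 ± 0.26 (limma adjusted p = 0.000383). Of 8 fibroblast and smooth muscle markers 4 fell (1850 to 2556 and 469 to 1144), among them the collagen gene Col1a1, by 2.00 ± 0.49 (limma adjusted p = 0.0317), a call that was lost without bleomycin replicate 2, without any 1 PBS library and with the replicate block. Of 6 AT1 markers 1 fell, of 6 club and ciliated cell markers 1 rose, and none of 4 mesothelial markers passed in limma. Over all tested genes 15.2% were called higher and 7.34% lower. Many markers that rose, among them Cd3d, Cd3e, Lck, Cxcr2, Mmp9, Adgre1, Siglecf, Flt3 and Cldn5, were below 1 FPKM in every PBS library. Only their bleomycin libraries let such markers into the test, and 92.9% of all tested genes of that kind were called higher. The counts per list are therefore descriptions. What part these cells have in the changes of the interleukin genes was not tested. In bulk libraries fewer cells of a type and less RNA per cell cannot be told apart.

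Among the ligands 11 of 18 were tested, and 5 rose and 1 fell, beside 15.2% and 7.34% of all tested genes. Il1a and Il17a were below 1 FPKM in every PBS library, so only their bleomycin libraries let them into the test. Il1b (mm10 chromosome 2, 129364570 to 129371139) measured 1.18, 1.88 and 2.88 FPKM with PBS and 110, 27.7 and 66.5 with bleomycin, always in the order of replicates 1, 2 and 3. All bleomycin values lay above all PBS values, and they differed among themselves more than those of the other ligands that rose. The log2 fold change was 4.37 ± 0.50 (± SE, limma adjusted p = 0.00163). In the same order of libraries the neutrophil markers summed to 607, 414 and 584 FPKM with bleomycin. Those of monocytes and recruited macrophages summed to 165, 112 and 159, and those of dendritic cells to 27.0, 22.4 and 22.9. All of these sums, like Il1b, were highest in bleomycin replicate 1 and lowest in replicate 2. Single markers of these lists, such as S100a8, S100a9, Ly6c2 and Ccr7, had other orders. Other lists were also highest in replicate 1 but lowest in replicate 3. Among them were T and NK cells (609, 544 and 347), B and plasma cells (897, 492 and 456) and alveolar macrophages (443, 332 and 261). Which cells Il1b came from was not tested. Il1a, of the related cytokine IL-1 alpha, lies 54598 bases from Il1b on the same strand, and it measured 0.311, 0.178 and 0.269 FPKM with PBS and 2.32, 1.74 and 3.83 with bleomycin. It rose by 1.5 ± 0.24 with no overlap (limma adjusted p = 0.00633), at a far lower level than its neighbour.

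Il18, whose product acts with IL-12 on T and NK cells, was at 2.16, 1.13 and 0.979 FPKM with PBS and at 8.40, 5.33 and 4.05 with bleomycin. The groups did not overlap, and it rose by 1.5 ± 0.30 (limma adjusted p = 0.0153). Without PBS replicate 2 or PBS replicate 3 its adjusted p was 0.0525 and 0.0554 (0.0125 to 0.0554 over all alternatives). Il33, the alarmin of the family, measured 32.2, 50.3 and 41.4 FPKM with PBS and 15.1, 63.9 and 29.7 with bleomycin. Bleomycin replicate 1 lay below all PBS libraries and replicate 2 above them, so the groups overlapped, and the difference of -0.39 ± 0.49 did not pass (limma adjusted p = 0.609). Il33 was the most abundant of the 18 ligands with PBS, while with bleomycin Il1b had the highest mean and Il33 the next. Il1f9, of IL-36 gamma, did not reach the filter.

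Il17a, made by a subset of T cells and known for recruiting neutrophils, was listed at 0, 0.372 and 0 FPKM with PBS and at 2.27, 1.72 and 3.92 with bleomycin. Every bleomycin value was above every PBS value (limma adjusted p = 0.00682). Its neighbour on chromosome 1, Il17f, was at 0.166, 0.114 and 0 with PBS and at 1.40, 1.02 and 0.949 with bleomycin, which is too low for the filter.

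Il6, a cytokine of fever and the acute phase, had 1.29, 16.9 and 2.94 FPKM with PBS and 6.61, 3.90 and 5.33 with bleomycin. PBS replicate 2 was the highest of all 6 libraries and the other 2 PBS libraries the lowest. Its difference was 0.18 ± 0.72 (limma adjusted p = 0.882), and without PBS replicate 2 it was 1.04, still not called, while without PBS replicate 1 it was -0.44.

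Il34 (mm10 chromosome 8, 110741840 to 110805903) was the ligand that fell. It measured 6.82, 4.78 and 6.67 FPKM with PBS and 2.85, 2.94 and 2.39 with bleomycin. All bleomycin libraries were below all PBS libraries, and the bleomycin values lay close together. The log2 fold change was -0.92 ± 0.19 (limma adjusted p = 0.0175). Without PBS replicate 1 or PBS replicate 3 the adjusted p was 0.0539 and 0.0610, and with the replicate number as a block 0.0568 (0.0062 to 0.0610 over all alternatives). The median change over the AT2 markers was -1.91 and that over the fibroblast and smooth muscle markers -1.38. Csf1r, the receptor gene for the IL-34 protein, was among the monocyte markers that rose.

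Il16 (mm10 chromosome 7, 83642825 to 83735523) encodes a precursor whose C-terminal part is released as a chemoattractant for cells bearing CD4. It was at 4.64, 3.66 and 4.18 FPKM with PBS and at 20.0, 17.1 and 12.3 with bleomycin. The groups were far apart, and it rose by 1.74 ± 0.21 (limma adjusted p = 0.0022). The rise did not fall evenly on its listed transcripts. The long one, with 19 exons, had 4.64, 3.47 and 4.18 FPKM with PBS and 0.698, 3.20 and 7.79 with bleomycin. The short one starts inside the gene and has 7 exons, all of which overlap exons of the long one, and it was at 0, 0.193 and 0 FPKM with PBS and at 19.3, 13.9 and 4.54 with bleomycin. The short transcript thus made up 0%, 5.26% and 0% of Il16 with PBS and 96.5%, 81.3% and 36.8% with bleomycin. These shares did not overlap (exact permutation test, two-sided, p = 0.1, the smallest that 3 against 3 libraries allow), as those of 18.2% of transcripts did not over all genes compared in this way, and bleomycin replicate 3 kept the long form as its larger part. Of the bases of the short transcript 97.7% lie in exons of the long one, so the division of fragments between both is an estimate of the authors' software.

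**Figure D1:**
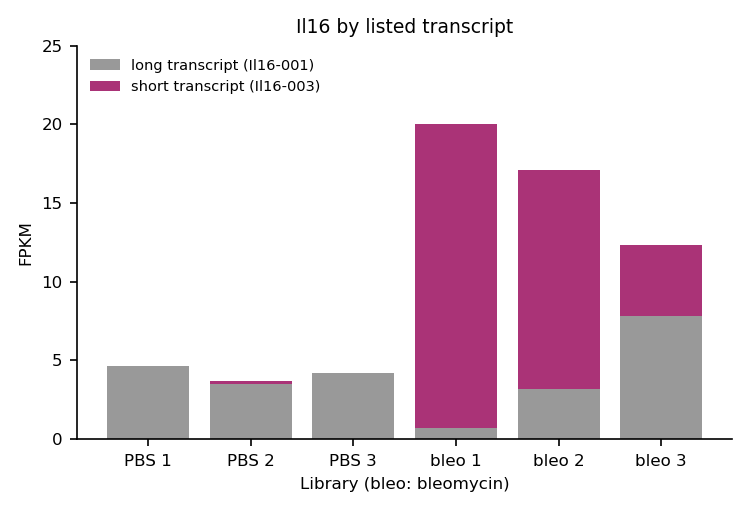
Il16 level (FPKM, vertical axis) in each of the 6 libraries (horizontal axis), with the long transcript in grey and the short one in purple stacked to the sum for the gene. The PBS bars, between 3.66 and 4.64 FPKM, are nearly all grey, and the bleomycin bars, between 12.3 and 20.0, hold 36.8% to 96.5% purple.

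Both starts of Il16 have a promoter in RefSeq, and the 250 bases before each are shown because the transcripts differ by their start (GRCm38.p6, minus strand, printed 5′ to 3′; chr7:83735540-83735789 for the long start and chr7:83655496-83655745 for the internal one). Capitals mark matches to short motifs, searched on both strands, of ETS factors (AGGAAG), RUNX factors (TGTGGT), AP-1 (TGACTCA or TGAGTCA), STAT dimers (GAS, TTCNNNGAA) and NF-kB (GGGA, any 4 bases, then CC).
Il16 long start: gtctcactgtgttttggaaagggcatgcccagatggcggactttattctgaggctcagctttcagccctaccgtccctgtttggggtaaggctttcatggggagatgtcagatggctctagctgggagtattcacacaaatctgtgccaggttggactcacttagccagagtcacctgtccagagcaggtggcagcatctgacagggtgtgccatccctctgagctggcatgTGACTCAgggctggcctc
Il16 internal start: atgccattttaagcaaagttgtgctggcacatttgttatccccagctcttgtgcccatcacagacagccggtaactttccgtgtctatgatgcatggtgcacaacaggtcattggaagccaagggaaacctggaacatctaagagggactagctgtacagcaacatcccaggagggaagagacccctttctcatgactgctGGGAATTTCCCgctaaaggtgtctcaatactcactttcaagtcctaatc
The long start had 1 match, to AP-1. The internal start had 2 overlapping matches, to NF-kB on either strand. A match is a description of the letters and does not show a bound factor. Of 32851 RefSeq promoters cut in the same way, 4.46% held the AP-1 letters and 17.6% the NF-kB letters.

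The other 10 ligands (Il2, Il7, Il10, Il11, Il12a, Il15, Il17d, Il17f, Il22 and Il1f9) had means of at most 3.34 FPKM in either group. Il15 and Il7, which sustain lymphocytes, were at 3.29 ± 1.19 and 1.03 ± 0.439 FPKM with PBS and at 3.34 ± 0.656 and 0.986 ± 0.0333 with bleomycin. Neither passed, with overlapping groups and limma adjusted p of 0.922 and 0.977, and Il17d did not either (adjusted p = 0.937). Of the 7 ligands that were too low for the test, Il10, Il12a, Il17f and Il22 were called higher in the fit without the filter, and Il2, Il11 and Il1f9 were not. Il10, the main anti-inflammatory interleukin, was at 0, 0.0514 and 0.0617 FPKM with PBS and at 1.71, 1.86 and 0.939 with bleomycin. Il22, which acts on epithelium, was listed at 0 in every PBS library and at 0.730, 0.354 and 1.27 with bleomycin.

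**Figure D2:**
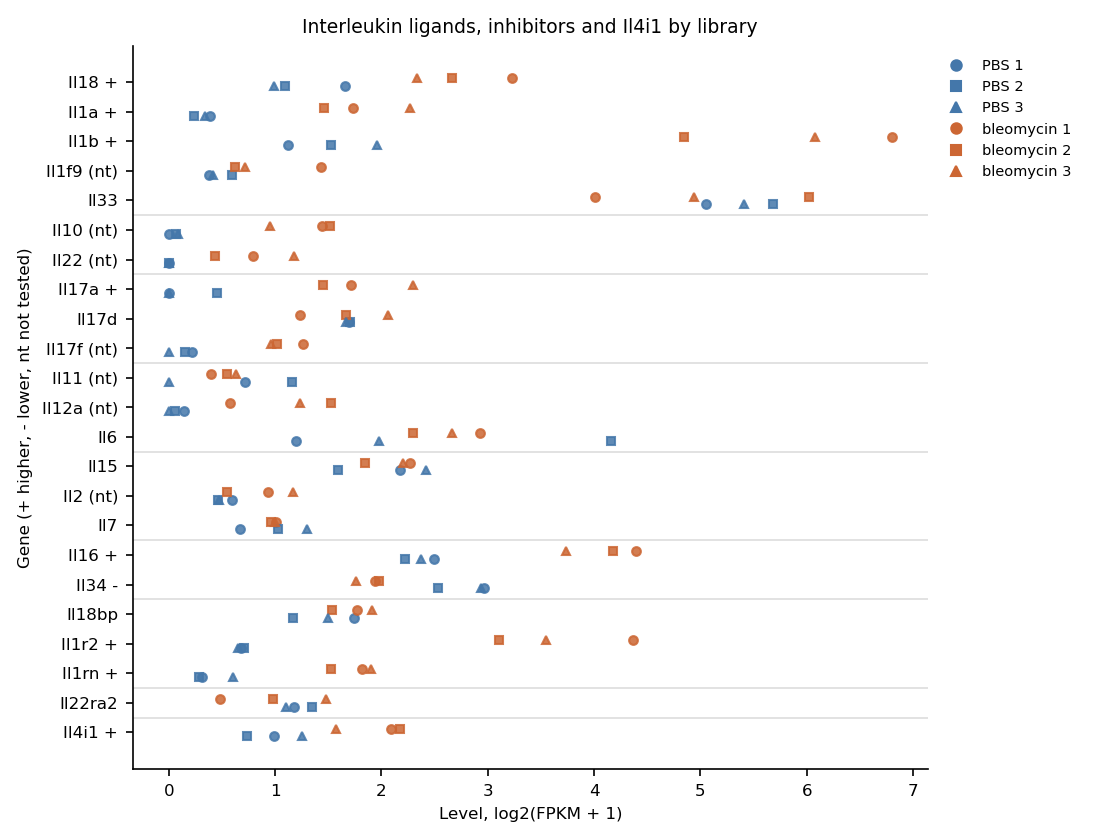
Level of each ligand, inhibitor and Il4i1 as log2(FPKM + 1) (horizontal axis) in the 3 PBS (blue) and 3 bleomycin (orange) libraries, with symbols for the replicate number, grey lines between families, and + or - beside genes called higher or lower. Il1b and Il1r2 show the widest gaps between the groups, while the symbols of Il33, Il6 and Il15 mix.

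All 4 inhibitors were tested, and 2 rose, both against IL-1. Both were below 1 FPKM in every PBS library, so only their bleomycin libraries let them into the test. Of all tested genes of that kind 92.9% were called higher, so this count is a description. Il1r2, a decoy receptor that binds IL-1 without signalling, was at 0.601, 0.637 and 0.565 FPKM with PBS and at 19.6, 7.60 and 10.7 with bleomycin. Its bleomycin values had the same order of libraries as Il1b and the marker sums of neutrophils, monocytes and recruited macrophages, and dendritic cells. The sums of T and NK cells, B and plasma cells and alveolar macrophages had another order. Which cells Il1r2 came from was not tested. The gene rose by 2.99 ± 0.32 (limma adjusted p = 0.00125). Il1rn, the IL-1 receptor antagonist, measured 0.240, 0.217 and 0.523 FPKM with PBS and 2.52, 1.89 and 2.74 with bleomycin and rose by 1.35 ± 0.19 (limma adjusted p = 0.00356). When each gene was represented by its most abundant transcript alone, Il1rn was too low to be tested and 1 inhibitor, Il1r2, was called. Il18bp, which traps IL-18, and Il22ra2, a soluble decoy for IL-22, had overlapping groups and limma adjusted p of 0.402 and 0.592. Il4i1 rose by 0.95 ± 0.24 from 0.990, 0.668 and 1.38 to 3.27, 3.52 and 1.97 FPKM (limma adjusted p = 0.0327). This call was lost without any 1 library but bleomycin replicate 3 (adjusted p 0.0514 to 0.0983), with the replicate block (0.0911) and in other fits (0.0210 to 0.131 over all alternatives).

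Of 33 receptor chains 30 were tested, and 15 rose and none fell in limma. At an unadjusted p under 0.05, 3 were lower. With libraries scaled to equal medians, a change that took the median over all tested genes from 0.09 to -0.07, 15 chains were higher and 2 lower, and with quantile normalization (median -0.08) 15 and 3. No share over all genes is given for the unadjusted cut or for these scalings, so the counts of lower chains only describe these genes. The receptor chains summed to between 212 and 271 FPKM with PBS and between 379 and 391 with bleomycin. Il6st, Il11ra1, Il18r1 and Il10rb were the most abundant with PBS. With bleomycin Il2rg, at place 17 of 33 with PBS, came first. Of tested genes with a PBS mean of 5 FPKM or more, 8.02% rose and 9.75% fell. Among the 12 such receptor chains none was called in either direction. Of tested genes below 5 FPKM with PBS 26.6% rose and 3.51% fell, and 15 of 18 such receptor chains rose. Since 11 of these 18 were below 1 FPKM in every PBS library and so had to be higher to be tested, this count is a description too.

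In the common gamma chain group, in which Il13ra1 was counted only as the partner of Il4ra, 6 of 8 tested receptor genes rose. Of these, 5 were below 1 FPKM in every PBS library, a kind of which 92.9% of all tested genes were called higher. This count is therefore a description. The summed level of the group, with Il13ra1 included, went from between 14.1 and 22.1 FPKM to between 142 and 145. Il2rg (mm10 chromosome X, 101264378 to 101268255) was at 1.23, 2.75 and 2.38 FPKM with PBS and at 72.1, 61.6 and 73.2 with bleomycin. The 3 bleomycin values were close to each other, and the change of 4.52 ± 0.23 (limma adjusted p = 0.000136) was the largest among the interleukin genes on this scale. Il2rb, the chain shared by the IL-2 and IL-15 receptors, measured 0.360, 0.653 and 0.532 FPKM with PBS and 23.0, 26.4 and 21.1 with bleomycin. It rose by 4.01 ± 0.17 (limma adjusted p = 0.000136), again with a narrow spread after bleomycin. The promoter of Il2rg, as the chain with the largest change, is given as the 250 bases before its RefSeq start (GRCm38.p6, chrX:101268256-101268505, minus strand), with 1 RUNX and 1 ETS match in capitals.
Il2rg: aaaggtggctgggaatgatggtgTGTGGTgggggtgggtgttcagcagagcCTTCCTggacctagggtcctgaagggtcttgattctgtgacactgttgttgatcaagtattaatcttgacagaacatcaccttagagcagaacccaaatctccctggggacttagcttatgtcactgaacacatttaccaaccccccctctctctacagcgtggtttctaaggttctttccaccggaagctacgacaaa
RUNX letters were found in 14.0% and ETS letters in 29.5% of all RefSeq promoters of this length. Of the interleukin genes 45 matched the RefSeq table, with 58 promoters, of which 17.2% held the RUNX, 36.2% the ETS, 13.8% the AP-1, 8.62% the GAS and 20.7% the NF-kB letters. GAS letters were in 7.02% of all promoters.

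Il7r, the specific chain for IL-7 on resting lymphocytes, was at 0.352, 0.937 and 0.693 FPKM with PBS and at 17.5, 15.1 and 15.3 with bleomycin (3.37 ± 0.19, limma adjusted p = 0.000159). Il21r, for a cytokine of helper T cells, had 0.298, 0.779 and 0.424 with PBS and 7.87, 6.82 and 9.52 with bleomycin (2.60 ± 0.20, limma adjusted p = 0.000381). Both had groups that lay far apart, with bleomycin values within a narrow band. Il9r, whose ligand acts on mast cells and lymphocytes, was at 0.0979, 0.103 and 0.163 FPKM with PBS and at 3.64, 2.11 and 4.24 with bleomycin (1.92 ± 0.23, limma adjusted p = 0.00195). Il2ra, the high-affinity IL-2 chain of activated and regulatory T cells, was listed at 0, 0.218 and 0.0863 with PBS and at 2.02, 3.12 and 2.28 with bleomycin (limma adjusted p = 0.00159). Both chains stayed at low levels after bleomycin, with no overlap between the groups. All 14 T and NK cell markers, among them Cd3e and Lck, rose in the same libraries. Of 6 mast cell and basophil markers in the files 2 were tested, and Cma1 rose. Cma1, Mcpt4, Cpa3, Fcer1a and Mcpt8 were each higher in every bleomycin library than in any PBS library, and Fcer1a was at 0 in every PBS library. The sums of 28.9 to 43.7 and 16.3 to 44.5 FPKM overlapped and were mostly Hdc, whose own groups overlapped. Of 5 markers of group 2 innate lymphoid cells, Gata3, Klrg1 and Icos rose, each from below 1 FPKM in every PBS library. Areg and Rora had overlapping groups and were not called (limma adjusted p = 0.937 and 0.841). The sums over all 5, of 17.2 to 28.5 and 23.8 to 42.7 FPKM, overlapped and were mostly Areg and Rora.

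The remaining chains of this group behaved otherwise. Il4ra, the chain for IL-4 and IL-13 that epithelium also expresses, was at 8.90, 5.03 and 7.44 FPKM with PBS and at 8.74, 8.10 and 12.5 with bleomycin, with overlapping groups (0.42 ± 0.25, limma adjusted p = 0.286). Its partner for IL-13, Il13ra1, measured 9.31, 3.68 and 3.31 FPKM with PBS and 9.37, 18.1 and 6.17 with bleomycin. Bleomycin replicate 2 stood above the others, and the difference of 0.92 ± 0.47 did not pass (limma adjusted p = 0.207). The endothelial markers were also highest in that library, at a sum of 545 FPKM against 291 and 301. The same held for the marker sums of AT2, AT1, mesothelial and group 2 innate lymphoid cells. Il15ra was below the filter, at 1.60, 0 and 0.147 FPKM with PBS and 0.247, 0.633 and 0.215 with bleomycin.

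**Figure D3:**
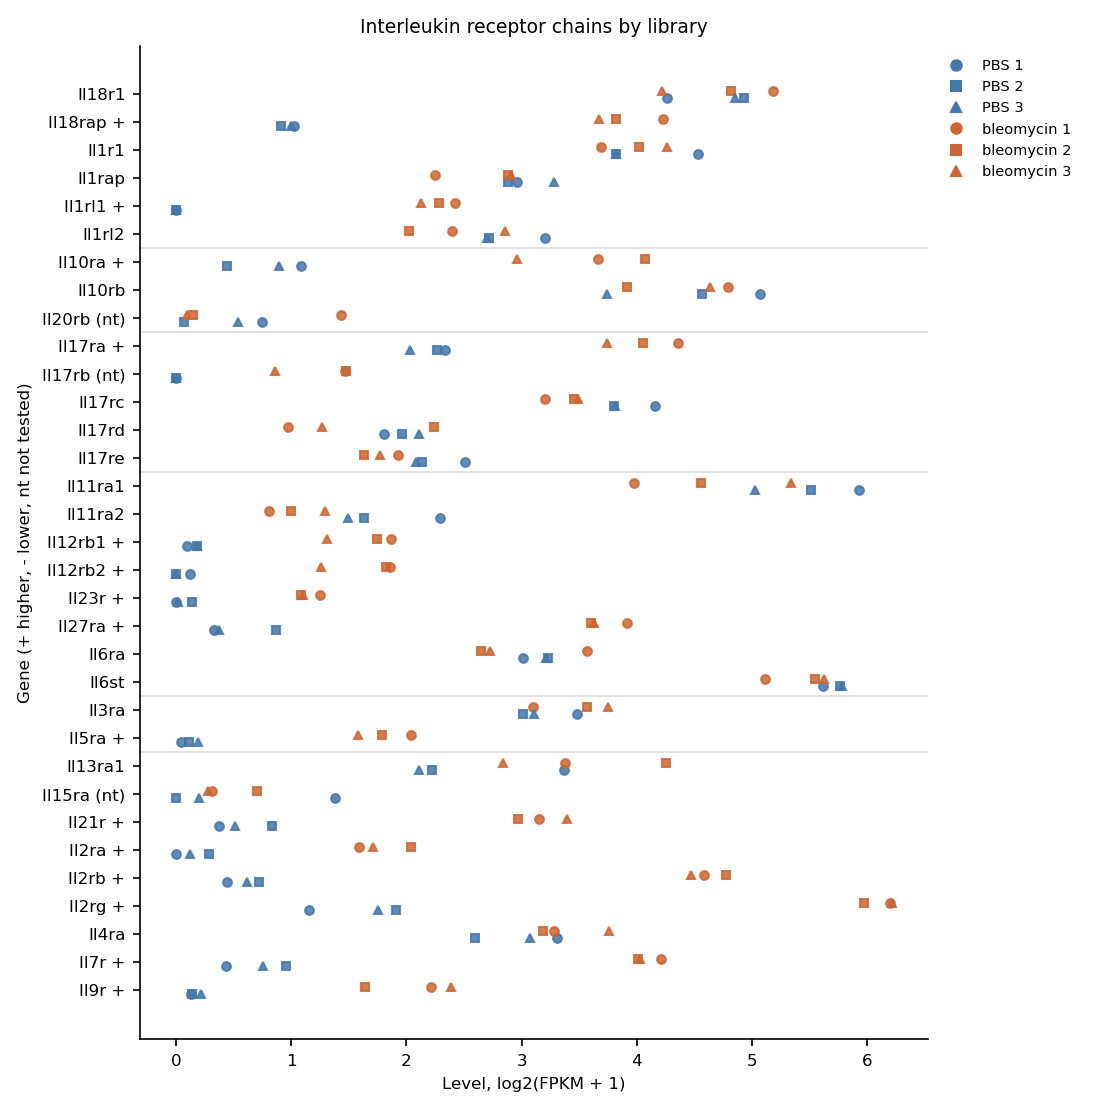
Level of each receptor chain as log2(FPKM + 1) (horizontal axis) in the 3 PBS (blue) and 3 bleomycin (orange) libraries, grouped by family between grey lines, with + beside chains called higher. The called chains lie at 4.04 FPKM or less in every PBS library, and among the chains to their right with PBS the symbols of Il6st and Il11ra1 mix, while those of Il17rc do not.

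In the IL-6 and IL-12 family 4 of 8 chains rose, all from below 1 FPKM in every PBS library. Of all tested genes of that kind 92.9% were called higher, so this count is a description. Il27ra, the receptor for IL-27 on T cells, was at 0.258, 0.829 and 0.297 FPKM with PBS and at 14.1, 11.1 and 11.3 with bleomycin. It had the largest change of the family, 3.19 ± 0.21, with tightly grouped bleomycin values (limma adjusted p = 0.000229). Il12rb1, which binds IL-12 and IL-23, rose from 0.0706, 0.137 and 0.139 to 2.65, 2.35 and 1.48 FPKM (limma adjusted p = 0.0029). Il12rb2, its partner for IL-12, was at 0.0905, 0.00337 and 0 with PBS and at 2.63, 2.54 and 1.39 with bleomycin (limma adjusted p = 0.00285). Il23r, 46744 bases from Il12rb2 on chromosome 6, was at 0, 0.101 and 0.0134 with PBS and at 1.38, 1.13 and 1.15 with bleomycin (limma adjusted p = 0.00326). All of these were highest in bleomycin replicate 1, as the T and NK cell markers were, with sums of 609, 544 and 347 FPKM. So were the marker sums of B and plasma cells, neutrophils, alveolar macrophages, monocytes and recruited macrophages, dendritic cells, and mast cells and basophils. Which cells these 4 chains came from was not tested.

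Il6st, the signalling chain for IL-6, IL-11 and IL-27, was the most abundant receptor chain with PBS, at 48.1, 53.2 and 54.0 FPKM, and stood at 33.5, 45.6 and 48.2 with bleomycin. The highest bleomycin value just exceeded the lowest PBS value (-0.30 ± 0.18, limma adjusted p = 0.286). Il6ra, the specific chain for IL-6, was at 7.09, 8.37 and 8.26 FPKM with PBS and at 10.9, 5.26 and 5.61 with bleomycin, with groups that overlapped (limma adjusted p = 0.69). Il11ra1, for IL-11, measured 60.0, 44.6 and 31.5 FPKM with PBS and 14.7, 22.6 and 39.5 with bleomycin. Its groups overlapped through bleomycin replicate 3 alone, which exceeded PBS replicate 3, and the difference was -0.86 ± 0.39 (limma adjusted p = 0.162). The fibroblast and smooth muscle markers had the same order after bleomycin, with sums of 469, 709 and 1144 FPKM. With PBS their order differed from that of Il11ra1, with sums of 2556, 1850 and 2005 FPKM. Il11ra2, a near-identical copy of Il11ra1, was at 3.90, 2.09 and 1.81 with PBS and at 0.747, 0.999 and 1.46 with bleomycin (limma adjusted p = 0.0839), and how reads were split between the copies is uncertain.

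The IL-1 receptor family showed its changes within a single stretch of the genome. On chromosome 1 of mm10, from 40084698 to 40551705, the files list 6 genes on the plus strand and no other gene between them, in the order Il1r2, Il1r1, Il1rl2, Il1rl1, Il18r1 and Il18rap. The first, the fourth and the last of them rose and the other 3 did not pass. Il18rap, the second chain of the IL-18 receptor, was at 1.04, 0.885 and 0.999 FPKM with PBS and at 17.7, 13.1 and 11.8 with bleomycin (2.93 ± 0.20, limma adjusted p = 0.000229). Il1rl1, the IL-33 receptor also known as ST2, was listed at 0 in every PBS library and at 4.35, 3.86 and 3.38 with bleomycin (limma adjusted p = 0.000251). It ends 156 bases before the start of Il18r1.

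Il18r1, the first chain of the IL-18 receptor, was at 18.2, 29.4 and 27.9 FPKM with PBS and at 35.3, 27.3 and 17.6 with bleomycin. The values mixed (0.06 ± 0.30, limma adjusted p = 0.912), although Il18r1 lies between the pair of genes that rose. Il1r1, the signalling IL-1 receptor, was at 22.1, 13.1 and 13.1 FPKM with PBS and at 11.9, 15.2 and 18.2 with bleomycin (limma adjusted p = 0.879). Il1rl2, the IL-36 receptor, measured 8.22, 5.56 and 5.51 with PBS and 4.26, 3.07 and 6.25 with bleomycin (limma adjusted p = 0.28). Neither group stood apart for these. Il1rap, the accessory chain that most receptors of the family share, lies on chromosome 16 and was at 6.78, 6.36 and 8.74 FPKM with PBS and 3.77, 6.35 and 6.49 with bleomycin (limma adjusted p = 0.321).

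**Figure D4:**
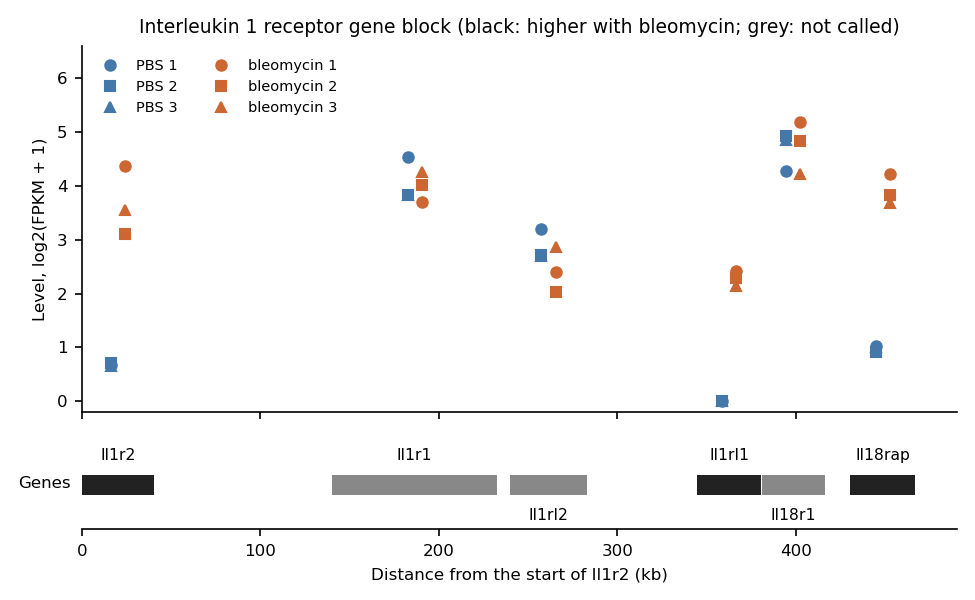
Upper panel: levels of the 6 genes of the chromosome 1 stretch as log2(FPKM + 1) in the PBS (blue) and bleomycin (orange) libraries, placed at the middle of each gene. Lower panel: extent of each gene in kb from the start of Il1r2, black where it rose. Il1r2, Il1rl1 and Il18rap have separate groups, with grey genes of mixed values between them.

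The neighbours Il18r1 and Il18rap, whose products pair in the IL-18 receptor, are shown as the 250 bases before the RefSeq start, for Il18r1 that of its most abundant listed transcript (GRCm38.p6, plus strand, chr1:40465756-40466005 and chr1:40515112-40515361).
Il18r1: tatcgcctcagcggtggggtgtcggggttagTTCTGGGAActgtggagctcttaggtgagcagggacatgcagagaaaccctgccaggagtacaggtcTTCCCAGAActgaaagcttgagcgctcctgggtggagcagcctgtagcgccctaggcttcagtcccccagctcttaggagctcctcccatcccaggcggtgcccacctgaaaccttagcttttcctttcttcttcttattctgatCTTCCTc
Il18rap: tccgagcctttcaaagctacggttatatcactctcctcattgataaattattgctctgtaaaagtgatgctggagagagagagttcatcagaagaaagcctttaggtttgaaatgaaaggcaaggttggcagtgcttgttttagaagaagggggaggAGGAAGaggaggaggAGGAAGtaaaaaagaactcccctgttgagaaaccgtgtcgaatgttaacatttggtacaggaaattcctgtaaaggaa
Capitals mark 2 GAS and 1 ETS matches before Il18r1 and 2 ETS matches before Il18rap.

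Of the other families, Il10ra, the specific chain of the IL-10 receptor, rose from 1.13, 0.357 and 0.864 FPKM to 11.7, 15.8 and 6.76 (2.75 ± 0.33, limma adjusted p = 0.00195). Its widely expressed partner Il10rb was at 32.6, 22.6 and 12.4 FPKM with PBS and at 26.7, 14.1 and 23.9 with bleomycin, the difference being -0.01 ± 0.39 (limma adjusted p = 0.99). Il17ra, the chain common to IL-17 receptors, was at 4.04, 3.82 and 3.10 FPKM with PBS and at 19.5, 15.6 and 12.4 with bleomycin. It was the only IL-17 receptor chain of the 4 tested that was called, with a rise of 1.84 ± 0.21 (limma adjusted p = 0.00159). Il17rc, its partner for IL-17A, measured 16.8, 12.9 and 13.1 FPKM with PBS and 8.22, 9.95 and 10.3 with bleomycin. These groups did not overlap, with a difference of -0.54 ± 0.18, but the gene missed the threshold (limma adjusted p = 0.0721). With equal medians or quantile normalization it passed (adjusted p = 0.0244 and 0.0302, with 0.0244 to 0.185 over all alternatives). Il17re, 669 bases from it, was likewise lower in every bleomycin library, at 4.68, 3.41 and 3.25 against 2.80, 2.11 and 2.42 FPKM (limma adjusted p = 0.13). Il17rd had a limma adjusted p of 0.369. Il17rb, a receptor chain for IL-25, was listed at 0 with PBS and at 1.77, 1.78 and 0.819 with bleomycin, and in the fit without the filter it was called higher (limma adjusted p = 0.00738). Il20rb also stayed below the filter.

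Il5ra, the IL-5 receptor of eosinophils and B cells, was at 0.0307, 0.0837 and 0.145 FPKM with PBS and at 3.10, 2.45 and 1.98 with bleomycin and rose by 1.68 ± 0.18 (limma adjusted p = 0.00117). Il3ra, of the same family, was at 10.2, 7.08 and 7.62 with PBS and at 7.57, 10.9 and 12.5 with bleomycin, with overlap (limma adjusted p = 0.443).

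Because receptors work as complexes, the balance of 14 pairs of chains was computed within each library as the log2(FPKM + 1) of one minus that of the other. The pairs were chosen after the values had been seen. Many set a chain that rose beside one that was not called, so the balances restate the levels above. An exact permutation test on each pair cannot fall below p = 0.1 with 3 against 3 libraries, so no conclusion is drawn from it. The balance of Il18rap to Il18r1 was -3.70 ± 0.408 with PBS and -0.833 ± 0.253 with bleomycin (mean ± SD, n = 3). Il17ra was below Il17rc with PBS, at -1.71 ± 0.158, and above it with bleomycin, at 0.668 ± 0.458. Il4ra was above Il2rg with PBS, at 1.39 ± 0.733, and below it with bleomycin, at -2.72 ± 0.233. In both of these last pairs every PBS library lay on one side of 0 and every bleomycin library on the other. Il1r1 against Il1rap, Il6ra against Il6st, Il4ra against Il13ra1 and Il12rb1 against Il12rb2 had balances that overlapped between the groups.

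**Figure D5:**
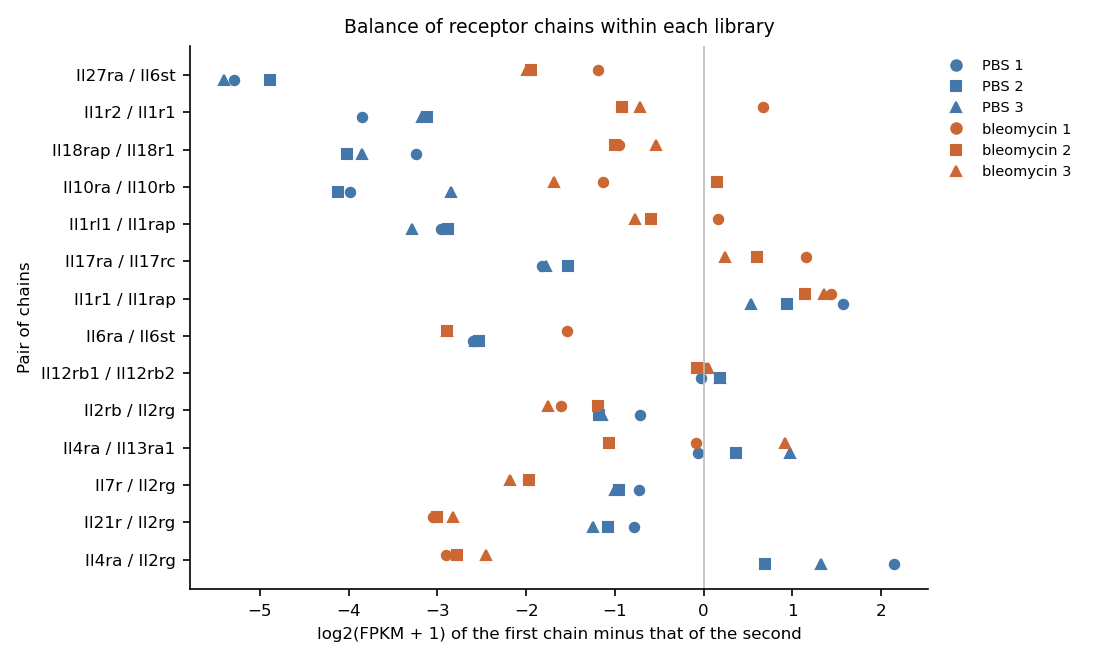
Difference in log2(FPKM + 1) between the chains of each pair (horizontal axis) in the 3 PBS (blue) and 3 bleomycin (orange) libraries, with 0 where both are equal. Il17ra / Il17rc moves from below to above 0 and Il4ra / Il2rg from above to below, while Il6ra / Il6st and Il1r1 / Il1rap overlap.

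Transcript shares were compared for 17 interleukin genes with more than 1 listed transcript and a mean of 5 FPKM or more in either group. For 5 of them, Il16, Il10ra, Il21r, Il4ra and Il6st, the shares of at least 1 transcript did not overlap between the groups, which held for 9 of the 43 transcripts in all. Over all listed genes chosen in the same way these were 31.2% of genes and 18.2% of transcripts, so the interleukin genes were near the background. The PBS shares of Il10ra and Il21r rest on gene totals of 0.298 to 1.13 FPKM. The main Il6st transcript made up 99.98%, 93.7% and 96.8% of the gene with PBS and 88.9%, 92.0% and 69.7% with bleomycin. For Il4ra a transcript that ends early in the gene took 7.86%, 11.4% and 1.74% with bleomycin and 0.00477%, 0.0136% and 0.00223% with PBS.

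Genes that carry interleukin signals under other names were taken as a list of 36, all tested. Of these 15 rose and 1 fell, beside 15.2% and 7.34% of all tested genes. Stat4, Ebi3, Nlrp3 and Csf2rb2 were below 1 FPKM in every PBS library, so only their bleomycin libraries let them into the test. Of all tested genes of that kind 92.9% were called higher, so the count for the list is a description. The median change of the list was 0.51 on the log2 scale, beside 0.09 over every gene tested. Without bleomycin replicate 1 the number that rose was 9, and without any 1 PBS library it was 10. All 4 Janus kinases rose, Jak1, Jak3, Tyk2 and Jak2, by 1.21, 1.26, 0.75 and 0.70. Stat4, a transcription factor used by IL-12, rose by 3.26. All 4 genes of ligand pairing and processing rose. Casp1, the protease that releases active IL-1 beta and IL-18, went from 1.14 ± 0.115 to 19.5 ± 4.80 FPKM (3.23 ± 0.21, limma adjusted p = 0.000212). Nlrp3, a sensor that activates it, rose by 3.09 and Ebi3, a subunit of IL-27, by 2.23. Csf2rb, the common beta chain, and Crlf2, which pairs with Il7r for TSLP, rose by 1.98 and 1.79. Among the feedback inhibitors Nfkbia rose by 2.00, and Socs2 fell from 47.3 ± 9.81 to 16.6 ± 4.15 FPKM (-1.46 ± 0.24, limma adjusted p = 0.00705). With the most abundant transcript alone Socs2 had an adjusted p of 0.0636 (0.0049 to 0.0636 over all alternatives). Socs1, Socs3 and Cish did not pass, and neither did Myd88 or Traf6.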

How the data were processed

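The series design gives 3 mice per group, and the titles of the samples give the group and the replicate number. The authors deposited an FPKM value per transcript and library, per the file headers. HISAT2, StringTie, FastQC 0.10.1 and the build mm10 are named per the submitters' processing notes, while no source used here gives the annotation, the settings or the use of strand in counting. Reads per library are unknown, so no counting error is given, and each library's listed values add up to 253146 to 300697 FPKM. An exact 0 can be a failed estimate. Of the 23 genes that rose, 10 overlap another gene of GENCODE M21 and 8 of them one on the opposite strand (Il1bos for Il1b, for example), whose reads cannot be told apart here.

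FPKM were summed by gene ID, and genes reaching 1 FPKM in 3 libraries or more were fitted as log2(FPKM + 1) with limma 3.58.1 in R 4.3.3 (eBayes with a variance trend and no term but the group). Fold changes are bleomycin minus PBS on that scale so changes of low genes come out too small. The fit was tested on simulated data. The interleukin genes, roles, marker and pathway lists were chosen with earlier results of these data known. Library values are given for interleukin genes with an adjusted p under 0.05 or a mean of at least 5 FPKM in either group. They are also printed for Il10, Il11ra2, Il15ra, Il17f, Il17rb, Il17re and Il22, which were picked after their values were seen. For the signalling list the rule takes the 4 with the smallest adjusted p in each direction, and other genes of that list named were picked after their values were seen. Alternatives were the pseudocount, the filter, the scaling, the transcript sum, the variance trend, the replicate block and each library left out.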

Additional observations from a re-analysis of the deposited data

How the results depend on the processing

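Of the 47 genes that the naming rule picks, 33 were called. Of these 27 kept their direction and call wherever they were tested, 24 under every alternative, while Il1rn, Il9r and Il23r went untested in 1 each. No receptor call was lost in a fit that tested the gene, and the number of receptor chains that rose was 14 to 16. Without a filter on low values 9 ligands rose. With equal medians 2 receptor chains and 2 signalling genes fell, with quantile normalization 3 and 2. With the most abundant transcript alone 1 inhibitor rose, the other being untested, and 0 signalling genes fell. With 1 library left out, 0 to 1 ligands fell and 9 to 14 signalling genes rose. Deviations from the group means correlated at r of -0.0043, 0.017 and 0.039 between same-numbered libraries. Between differently numbered libraries r was -0.035 to 0.021. Values this small cannot show or exclude a shared batch, so whether the numbers pair the libraries is not settled. With the replicate block 0 ligands fell and 11 signalling genes rose. Among genes never called, Il6 had -0.011 with a pseudocount of 5 and -0.021 with quantile normalization, and Il18r1 -0.13 with equal medians and -0.0062 with quantile normalization. With 1 library left out Il6 ranged from -0.44 to 1.04, Il33 from -0.90 to 0.10, Il18r1 from -0.16 to 0.32, Il1r1 from -0.20 to 0.17 and Il10rb from -0.37 to 0.30. The cause of these moves was not tested. Without read counts, depth sets no stated limit for genes under 1 FPKM.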
